A study of Mus musculus with 8 samples.

Results

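Grhl1, Grhl2, Grhl3, Klf4, Ovol1, Gata3, Dlx3, Cebpb and Arid3a encode DNA-binding proteins, most of them known for their part in building the epidermal barrier. Their messenger RNAs were followed in dorsal skin of wild-type mouse embryos at embryonic day 14.5 (E14.5, 2 arrays), E16.5 (3 arrays) and E18.5 (3 arrays). Every probeset annotated to exactly 1 of these 9 symbols was taken, which gave 16 of the 45101 probesets on the array. Of the genes, 4 had 1 probeset (Grhl1, Grhl3, Gata3 and Arid3a), Grhl2 had 4 and the others had 2. A gene with several probesets is described first by its leading probeset, the one with the highest mean over the 8 arrays. The strain is not stated in the labels, which also do not say whether the samples of a stage came from separate animals or pools, so the p-values cover only the variation among these samples, which may be technical. The series was designed to compare gene regulation across epidermal differentiation.

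The mouse epidermis stratifies during this period, and a working outside barrier is built shortly before birth. Grainyhead-like proteins bind a shared DNA sequence through a conserved immunoglobulin-like domain. Grhl3 is required for barrier formation and for closure of the neural tube and eyelids, Grhl2 maintains E-cadherin and claudin expression in epithelia, and Grhl1 controls desmosomal cadherin expression. Klf4 is a zinc finger factor without which the barrier fails to form. Ovol1 is a zinc finger repressor that acts as progenitors leave the cell cycle, Dlx3 is a homeobox factor of stratified epidermis and hair, and Gata3 acts in the epidermis and in the inner root sheath of the hair follicle. Cebpb acts with Cebpa in keratinocyte differentiation and is also used by adipocytes and macrophages. Arid3a belongs to a family that binds AT-rich DNA and is best known from B cells.

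Each value below is the authors' signal intensity for a probeset on a linear scale, and each difference is taken on log2(signal + 16), with its standard error (SE). A fold is likewise on that scale, which understates changes of dim probesets. Signals were fitted with limma over 34945 probesets, and a call means an adjusted p (Benjamini-Hochberg, over all of them) under 0.05. Background was read on each array from 78 olfactory and vomeronasal receptor probesets, as their 95th percentile, and lay between 35.9 and 92.7. Between 21403 and 25766 of the tested probesets lay above it. The E14.5 arrays stood apart in their controls. Beta-actin's 3′ probes exceeded its 5′ probes 6.49-fold and 6.91-fold on those arrays, and 1.11-fold to 1.37-fold on the other 6. Median signals over all probesets were 60.8 and 63.4 at E14.5 and 120.1 to 153 on the other arrays. Stage and array preparation therefore cannot be told apart in any difference from E14.5. The 2 later stages were also separate in these measures, with a smaller gap in the actin ratio. The highest E16.5 array had a ratio of 1.14, below the 1.35 of the lowest E18.5 array. For background, the corresponding values were 53.8 and 62.6, and for median signal 128.9 and 137.5. The part of array preparation in differences between these later stages was not tested. The median log2 difference of all probesets was 0.12 from E16.5 to E18.5 and 0.38 from E14.5 to E16.5. The latter was −0.026 with quantile normalization and −0.57 with each array centred on its median. Of all called probesets, 58.6% were higher at E18.5 than at E16.5 (38.5% with median centring), and 67.5% were higher at E16.5 than at E14.5 (51.4% with quantile normalization and 33.1% with median centring). For E18.5 against E14.5 the share was 71.7% (51.4% and 32.9%). In bulk skin, fewer cells of a type and less RNA per cell cannot be told apart.

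**Figure D1:**
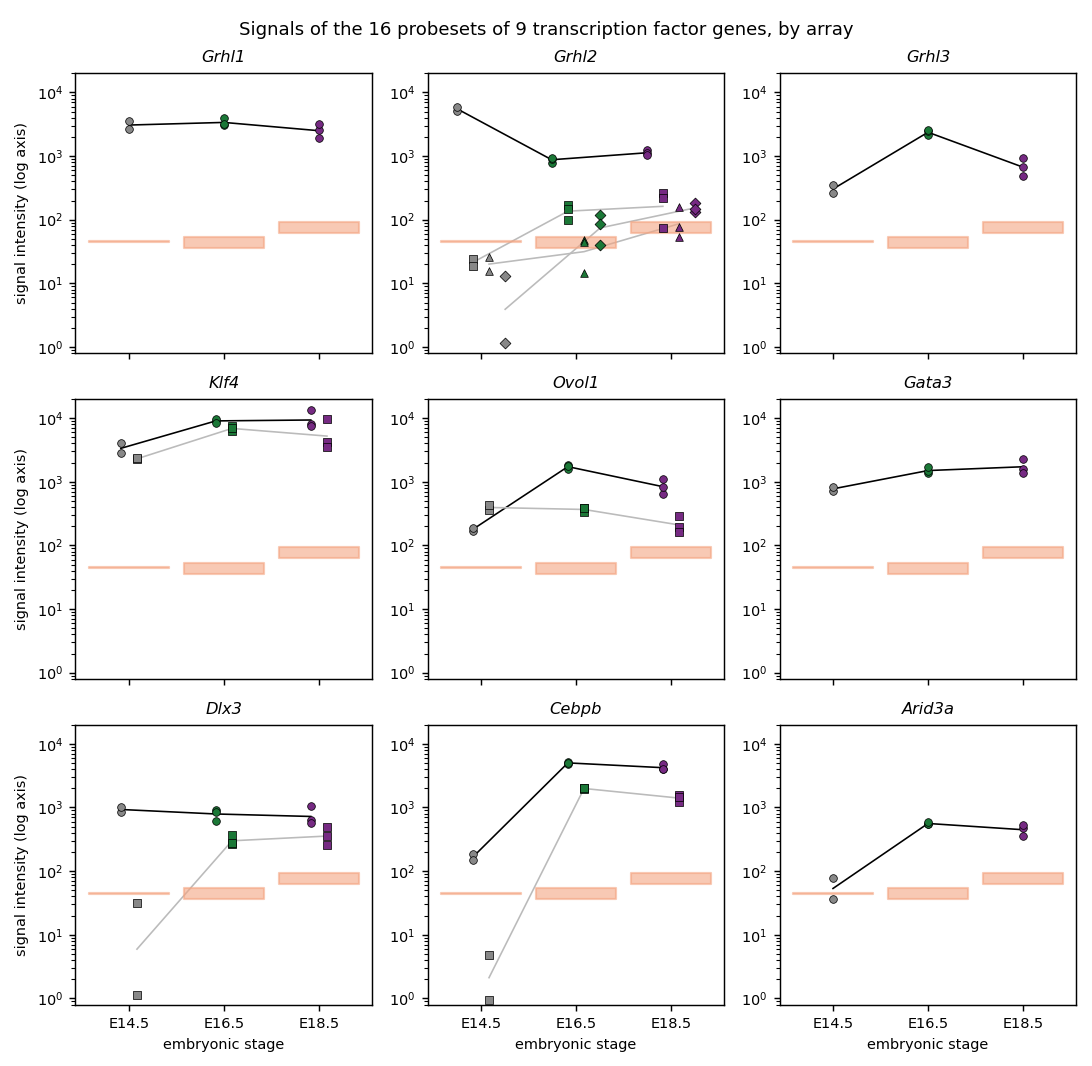
Signal intensity of each probeset (log axis) on each array, by stage, for the 9 genes. Circles with a black line mark the leading probeset, other symbols with grey lines the other probesets of that gene, lines join geometric means, and the orange band spans the arrays' background. Grhl3 lies at 2103 to 2573 at E16.5, above both other stages, and the lower Grhl2 probesets lie near or below background at E14.5.

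From E16.5 to E18.5, Grhl3 and Ovol1 fell, and 0 probesets of the 9 genes were called higher. The tests called 2 of the 16 probesets (12.5%), 0 higher and 2 lower, against 10.7% of all probesets (6.27% higher and 4.44% lower), so the share of calls was close to that of the whole array. Unadjusted p was under 0.05 for 8 of the 16. The share of all probesets below that limit was not counted, so no excess is read from this number. The E16.5 and E18.5 arrays did not overlap for 9 of the 16 probesets (56.2%), against 36.8% of all probesets. The median log2 difference of the 16 probesets was −0.19, against 0.12 over all probesets.

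From E14.5 to E16.5, Cebpb, Ovol1, Arid3a, Grhl3, Klf4 and Gata3 rose by their leading probesets, and the leading probeset of Grhl2 fell. Of the 16 probesets, 11 were called higher and 1 lower, 75.0% in all, against 57.6% of all probesets (38.9% higher and 18.7% lower). The median difference was 1.80 for the 16 probesets and 0.38 for all. The arrays of these stages did not overlap for 12 of the 16 (75.0%), against 73.7% of all probesets. From E14.5 to E18.5, 12 were called higher and 2 lower, against 59.8% of all probesets called (42.9% higher and 16.9% lower), and the arrays did not overlap for 14, against 69.6% of all probesets. These last 2 comparisons share the E14.5 arrays, and those from E14.5 to E16.5 and from E16.5 to E18.5 share the E16.5 arrays.

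RefSeq promoter sequences (build GRCm38.p6) were at hand for 5 of the 9 genes (Grhl1 with 2 starts, Grhl3, Klf4, Gata3 and Cebpb). Those of Grhl3, Klf4 and Cebpb are shown as examples. All these genes were called higher at E16.5 than at E14.5, while only Grhl3 of these was called lower afterwards. Gata3, also called higher at E16.5 and not called afterwards, is not shown. Each stretch shown runs over the 250 bases before the transcription start, 5′ to 3′ on the gene's strand. The Grhl3 stretch is chr4:135573633-135573882 (minus strand), that of Klf4 chr4:55532476-55532725 (minus strand) and that of Cebpb chr2:167688665-167688914 (plus strand). Capitals mark matches to CCGCCC or its reverse complement, the GC box bound by Sp and Klf proteins.
Grhl3: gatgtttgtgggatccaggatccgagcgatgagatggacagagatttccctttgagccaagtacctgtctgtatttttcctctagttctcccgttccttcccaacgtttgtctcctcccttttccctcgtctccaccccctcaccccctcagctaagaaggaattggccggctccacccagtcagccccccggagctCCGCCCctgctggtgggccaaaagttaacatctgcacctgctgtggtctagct
Klf4: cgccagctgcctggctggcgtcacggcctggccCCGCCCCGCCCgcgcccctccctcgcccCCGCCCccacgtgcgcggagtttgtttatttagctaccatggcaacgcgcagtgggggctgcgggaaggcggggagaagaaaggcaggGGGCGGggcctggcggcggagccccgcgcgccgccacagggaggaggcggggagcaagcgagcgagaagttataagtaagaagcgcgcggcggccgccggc
Cebpb: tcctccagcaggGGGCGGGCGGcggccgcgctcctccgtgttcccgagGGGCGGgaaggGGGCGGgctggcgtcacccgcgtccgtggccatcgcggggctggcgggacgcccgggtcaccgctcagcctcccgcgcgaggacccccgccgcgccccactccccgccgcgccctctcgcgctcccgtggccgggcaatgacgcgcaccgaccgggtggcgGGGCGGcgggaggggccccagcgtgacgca
The Grhl3 stretch held 1 GC box, whose first base lay 53 bases before the start. Klf4 held 4 and Cebpb held 5, and in both genes the 2 farthest from the start overlapped each other. Of the stretches not shown, that of Gata3 held 2, and those of the Grhl1 starts held 2 and 0. GC boxes were found in 32.7% of 32851 promoter stretches of the same length. On both strands, AACNGGTT (grainyhead factors, 1.79% of all stretches), AGATAA (bound by zinc fingers of the GATA family, 9.99%), TTGCNNAA (C/EBP, 9.56%), TGANTCA (AP-1, 6.75%) and TATAAA (12.4%) had 0 matches in the 6 stretches of these 5 genes. The deposited values carry no binding data, so these letters describe the windows only.

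Grhl3 was the member that fell furthest after E16.5. Its probeset (1436932_at) gave 267 and 345 at E14.5, then 2103, 2445 and 2573 at E16.5, and 670.1, 934 and 478 at E18.5. All 3 stages were separate, with every E16.5 array above every array of both other stages. From E16.5 to E18.5 the signal went from 2373 ± 243 to 694 ± 229 (SD, n = 3 each), a 3.47-fold fall (log2 −1.80 ± 0.22 SE, limma adjusted p = 0.00127). The earlier rise was 7.45-fold (log2 2.90 ± 0.25, adjusted p = 2.47e-06). The change over the second interval minus that over the first was −4.69 ± 0.40 (adjusted p = 7.53e-06). At E18.5 Grhl3 was still 2.14-fold above E14.5 (log2 1.10 ± 0.25, adjusted p = 0.00273). That last call was lost with quantile normalization (log2 0.41, adjusted p = 0.248) and with median centring (0.033, adjusted p = 0.924), whereas the fall after E16.5 was called in all 18 alternatives (log2 −2.03 to −1.56).

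Grhl1, the desmosome-linked relative, was not called between any stages on the signals as deposited. Its probeset (1424030_at) gave 2655 and 3547 at E14.5, 3920, 3056 and 3210 at E16.5 and 2557, 3171 and 1929 at E18.5, and the arrays of neighbouring stages overlapped. The log2 difference from E16.5 to E18.5 was −0.43 ± 0.19 SE (adjusted p = 0.170), and that from E14.5 to E16.5 was 0.14 ± 0.21 (adjusted p = 0.613). With median centring the latter became −0.82 (adjusted p = 0.00926), and that from E14.5 to E18.5 went from −0.29 (adjusted p = 0.254) to −1.36 (adjusted p = 0.000341).

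Grhl2, the relative tied to adherens and tight junctions, was measured by 4 probesets that did not move together. The leading probeset (1427046_at) gave 5185 and 5962 at E14.5, 787, 904 and 940.4 at E16.5 and 1251, 1100.05 and 1036 at E18.5. It was 6.26-fold lower at E16.5 than at E14.5 (log2 −2.65 ± 0.14 SE, n = 2 and 3, adjusted p = 1.27e-07). Of the other 3, 1431877_a_at and 1452643_at were called higher over the same interval, at least 2.50-fold and at least 1.50-fold. These are lower bounds, since both E14.5 arrays lay at or below background. Their E16.5 signals were 100.4 to 169 and 40.4 to 117. The remaining probeset, 1431878_at, lay between 15.8 and 25.5 at E14.5, between 14.5 and 48.5 at E16.5 and between 52.7 and 157 at E18.5, above background on 1 array of each later stage. Averaging the 4 probesets turned the log2 difference to 0.46 (adjusted p = 0.203). From E16.5 to E18.5 none of the 4 was called, with log2 differences of 0.25 to 1.08 and adjusted p from 0.105 to 0.736. On 3 of them (1427046_at, 1431878_at and 1452643_at), every E18.5 array lay above every E16.5 array, with unadjusted p of 0.0192, 0.0272 and 0.0371.

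**Figure D2:**
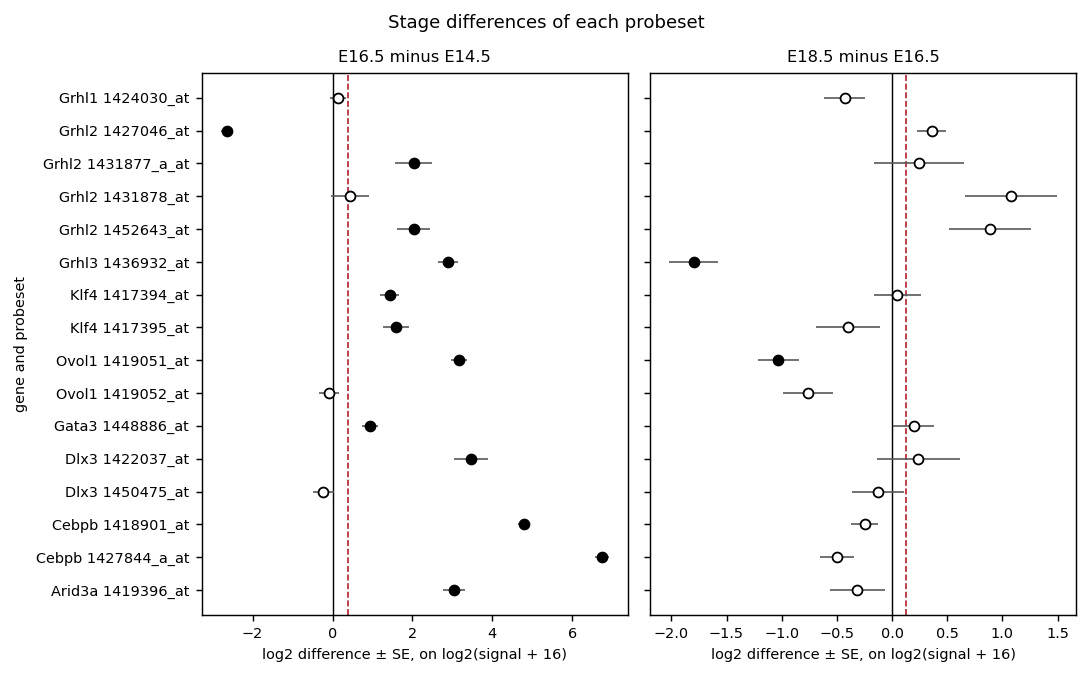
Log2 difference of each of the 16 probesets (points, with SE) from E14.5 to E16.5 and from E16.5 to E18.5. Filled points were called at an adjusted p under 0.05, and the dashed line is the median of all probesets. From E16.5 to E18.5 only the Grhl3 probeset and 1 Ovol1 probeset are filled, both on the negative side, and the axes of the panels differ in range.

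Klf4 was high at both later stages. Its leading probeset (1417394_at) gave 2789 and 4014 at E14.5, 9085, 9597 and 8442 at E16.5 and 8036, 13526 and 7473 at E18.5. The second (1417395_at) gave 2262 and 2322, then 6261, 7474 and 6960, and then 4176, 9506 and 3565. Both E14.5 arrays lay below every later array on both probesets, and 1 E18.5 array, replicate 2, was the highest of all on both. From E14.5 to E16.5 the leading probeset rose 2.69-fold (log2 1.43 ± 0.24 SE, adjusted p = 0.00037) and the second 2.99-fold (1.58 ± 0.32, adjusted p = 0.00155). With median centring the leading probeset was not called (0.48, adjusted p = 0.117). From E16.5 to E18.5 the log2 differences were 0.047 ± 0.21 (adjusted p = 0.910) and −0.40 ± 0.29 (adjusted p = 0.406). Without E18.5 replicate 2, the second probeset was called lower (−0.83 ± 0.12, adjusted p = 0.00739) and the leading probeset had a log2 difference of −0.22. The change over the second interval minus that over the first was −1.38 ± 0.38 (adjusted p = 0.0132), and its call was lost without E14.5 replicate 1 (adjusted p = 0.057) or E16.5 replicate 2 (adjusted p = 0.0542) and with median centring (−0.54, adjusted p = 0.28).

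Ovol1 peaked at E16.5 on its leading probeset (1419051_at), which gave 169 and 189 at E14.5, 1605, 1826 and 1753 at E16.5 and 1100.3, 647 and 823 at E18.5. The 3 stages were separate. The rise into E16.5 was 8.94-fold (log2 3.16 ± 0.21 SE, adjusted p = 3.98e-07) and the fall after it 2.04-fold (−1.03 ± 0.19, adjusted p = 0.00773). The fall was called in all 18 alternatives, with adjusted p of 0.00254 to 0.0451. The other probeset (1419052_at) gave 355 and 438, then 389, 334 and 380, and then 291, 195 and 163. It showed no rise into E16.5 (log2 −0.10 ± 0.25, adjusted p = 0.763), and its E18.5 arrays all lay below its E16.5 arrays (−0.76 ± 0.22, adjusted p = 0.0563). The probesets thus differed over the first interval and went the same way over the second, where the lower one was called in some alternatives, among them median centring (adjusted p = 0.042) and omission of the first E18.5 array (adjusted p = 0.0173).

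Gata3, the factor shared by epidermis and inner root sheath, rose into E16.5 and was not called thereafter. Its probeset (1448886_at) gave 719.6 and 829.6 at E14.5, 1371, 1455 and 1687 at E16.5 and 2315, 1574 and 1396 at E18.5. The rise was 1.92-fold (log2 0.94 ± 0.21 SE, adjusted p = 0.00236), but with median centring the difference was −0.011 (adjusted p = 0.970). The E16.5 and E18.5 arrays overlapped (0.20 ± 0.18, adjusted p = 0.527).

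Dlx3 was measured by 2 probesets, which like those of Klf4 and of Ovol1 were designed from 1 source sequence. The leading one (1450475_at) gave 857 and 1005 at E14.5, 620.3, 920.1 and 860.0 at E16.5 and 1051, 630.1 and 566 at E18.5, with all stages overlapping. Its log2 difference was −0.23 ± 0.26 SE from E14.5 to E16.5 (adjusted p = 0.487; −1.18 and adjusted p = 0.00301 with median centring) and −0.13 ± 0.24 from E16.5 to E18.5 (adjusted p = 0.765). The other (1422037_at) gave 1.12 and 31.6 at E14.5, both below background, and 268, 362 and 276 at E16.5. It rose at least 5.16-fold into E16.5 (log2 of the measured signals 3.47 ± 0.42, adjusted p = 3.55e-05). At E18.5 it gave 493, 359 and 253 (0.24 ± 0.38, adjusted p = 0.720). Over the first interval, 3 of the 5 genes with several probesets (Grhl2, Ovol1 and Dlx3) had probesets with different calls, and in Klf4 and Cebpb every probeset was called higher.

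Cebpb had the largest difference of the 9 genes from E14.5. Its leading probeset (1418901_at) gave 186 and 149 at E14.5, 4759, 5248 and 5023 at E16.5 and 3989, 4727 and 3956 at E18.5. It was 27.6-fold higher at E16.5 than at E14.5 (log2 4.78 ± 0.14 SE, n = 2 and 3, adjusted p = 1.49e-08), and log2 3.83 to 5.76 in all 18 alternatives. The second probeset (1427844_a_at) gave 4.80 and 0.931 at E14.5, below background, then 2044, 1924 and 1987, and then 1219, 1546 and 1459. It was at least 32.7-fold higher at E16.5 (adjusted p = 9.47e-09). Every E18.5 array lay below every E16.5 array on both probesets, but neither difference was called (−0.25 ± 0.13, adjusted p = 0.230, and −0.50 ± 0.16, adjusted p = 0.0706). The second was called with only the E16.5 and E18.5 arrays fitted (adjusted p = 0.0366), with median centring (adjusted p = 0.0336) and without either E14.5 array (adjusted p = 0.0468 and 0.046).

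Arid3a gave 78.2 and 36.3 at E14.5, the second below background, 545, 548 and 586 at E16.5 and 473, 350.3 and 536 at E18.5 (1419396_at). It rose at least 7.53-fold into E16.5 (log2 of the measured signals 3.04 ± 0.28 SE, adjusted p = 4.01e-06). The E18.5 arrays all lay below the E16.5 arrays, with a difference of −0.32 ± 0.25 that was not called (adjusted p = 0.444).

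By leading probeset, the order of stages was therefore E16.5, E18.5, E14.5 for Grhl3 and Ovol1, with every neighbouring pair called. For Cebpb and Arid3a the means ran in the same order and the E16.5 and E18.5 arrays did not overlap, but the test did not call that later step. Klf4 and Gata3 lay higher at both later stages than at E14.5, with the step from E14.5 to E16.5 called. Their 2 later stages are not ordered here, since that step was not called and its sign changed in some alternatives. Grhl2 ran E14.5, E18.5, E16.5 with the later pair not called, and no step was called for Grhl1 or Dlx3. Over both intervals, the second change minus the first was called for 9 of the 16 probesets (56.2%), 8 lower and 1 higher, against 44.9% of all probesets (15.8% higher and 29.1% lower). Of those calls over all probesets, 35.2% were higher, 47.0% with quantile normalization and 64.1% with median centring.

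The 3 E18.5 arrays differed among themselves in which genes were high. Grhl3, both Klf4 probesets and both Cebpb probesets were highest on replicate 2, whereas Gata3, both Dlx3 probesets and the leading Ovol1 and Grhl2 probesets were highest on replicate 1. Over the 16 probesets, 8 were highest on replicate 1, 7 (43.8%) on replicate 2 and 1 (6.25%) on replicate 3, against 43.0%, 24.0% and 33.0% of all genes highest on replicates 1, 2 and 3. The inner root sheath list (Krt25, Krt27, Krt28, Krt71, Krt72, Krt73 and Tchh) fell in the order of replicates 1, 2 and 3 in 7 of 7 genes, as Gata3 and both Dlx3 probesets did, against 21.2% of all genes. Summed over that list, the E16.5 arrays gave 200.3 to 279 and the E18.5 arrays 6770 to 34647. The same order held in 6 of 6 melanocyte, 5 of 6 basal keratinocyte, 5 of 6 periderm and 8 of 10 hair shaft markers, in 4 of 5 Dlx relatives, and in 6 of the 16 probesets (37.5%), the other 3 being the leading Grhl2 probeset, 1431877_a_at of Grhl2 and 1419052_at of Ovol1. Of the 39 genes of the cornified envelope list, 26 (66.7%) had their peak on replicate 2, against 24.0% of all genes. Replicates have no order in the design, and the part of cell composition in these differences was not tested.

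The 6 basal and 6 suprabasal keratinocyte markers, read on the same arrays, were not called over the interval in which Grhl3 and Ovol1 fell. Of the 39 cornified envelope and granular layer genes, 5 rose and 11 fell over it. The part of cell composition in these changes was not tested. Of 6 basal markers (Krt5, Krt14, Krt15, Itga6, Itgb4 and Col17a1) 0 were called between E16.5 and E18.5 by limma, with a median log2 difference of 0.13, and summed signals of 47927 to 54057 before and 53793 to 65291 after. Of 6 suprabasal markers 0 were called, with summed signals of 102342 to 110972 and 122092 to 130606 and a median of 0.14. With quantile normalization, 1 of the 6 suprabasal markers was called lower and their median was −0.11. Before adjustment, p was under 0.05 for 1 basal and 4 suprabasal markers. Markers of other cell types moved at the same time. Of all genes, 6.69% were called higher and 5.21% lower over this interval. Inner root sheath markers rose in 6 of 7 and adipocyte markers in 5 of 5, with summed adipocyte signals of 7509 to 9709 and then 28580 to 35567. Of 6 markers of periderm and simple epithelium, 1 rose and 3 fell. Dermal fibroblast markers rose in 2 of 8, macrophage markers in 3 of 8 and hair shaft markers in 6 of 10, and erythroid markers fell in 4 of 5. With quantile normalization the fibroblast, macrophage and hair shaft rises were 0, 4 and 4, and with median centring 1, 3 and 6. Melanocyte markers rose in 4 of 6, with a median of 1.17. With median centring the melanocyte and adipocyte rises were 3 of 6 and 4 of 5. Among B cell markers, in whose lineage Arid3a is known, 0 of 4 were called after E16.5, and 0 had an unadjusted p under 0.05. Of T cell markers, in which Gata3 acts, 0 of 5 were called by limma and 1 had an unadjusted p under 0.05, and Cd3d was at background on all arrays.

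Over the first interval, in which 6 of the 9 genes rose, markers of many cell types also moved, and their part in those rises was not tested. Of all genes, 37.1% were called higher and 20.8% lower over this interval. With median centring, 3248 of 18193 genes were higher and 8183 lower. Basal keratinocyte markers rose in 5 of 6 and fell in 1, as they did with median centring. Suprabasal markers rose in 4 of 6, but with median centring 0 were higher and 2 lower. For the cell types that also use Cebpb, adipocyte markers rose in 2 of 5 (1 higher and 2 lower with median centring), and macrophage markers rose in 3 of 8 and fell in 1 (3 and 5 with median centring). Skeletal muscle markers rose in 5 of 6 (5 higher and 1 lower with median centring). Mast cell markers rose in 3 of 5 (2 and 0 with median centring) and melanocyte markers in 4 of 6 (2 and 1). Endothelial markers rose in 4 of 5 and fell in 1, as they did with median centring. Periderm markers rose in 2 of 6 and fell in 3 (2 and 4 with median centring). Of the B cell markers, 2 of 4 were called higher (1 higher and 1 lower with median centring), too few genes to set against the rise of Arid3a. Ighm, the immunoglobulin mu heavy chain, read 1.03 and 2.02 at E14.5 and between 198 and 215 at E16.5, at least 3.64-fold higher (adjusted p = 1.05e-06), though not called with the mean of its probesets (log2 0.41, adjusted p = 0.21). Ms4a1, which encodes CD20, was called higher (adjusted p = 0.0196) although it lay at or below background on all arrays, as did Cd79a, and its call was lost with median centring (log2 0.062, adjusted p = 0.88), with the mean of its probesets (adjusted p = 0.195), and without the second E14.5 array (adjusted p = 0.116) or the second E16.5 array (adjusted p = 0.0749). T cell markers had 0 calls of 5, and 0 with an unadjusted p under 0.05.

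Relatives of the 9 factors were examined by the leading probeset of each gene, for which 11.9% of all genes were called from E16.5 to E18.5 and 57.9% from E14.5 to E16.5. Of 15 Kruppel-like relatives, 3 rose and 5 fell into E16.5, and 1 fell after it. Klf5, a factor of basal progenitors, went from between 343 and 463 to between 5736 and 6795, a 15.3-fold rise (log2 3.94 ± 0.17 SE, adjusted p = 4.08e-08; 1.60 with the mean of its probesets). Klf10, a TGF-beta-induced relative, fell 5.70-fold over that interval. Of 3 C/EBP relatives Cebpd rose 5.21-fold into E16.5 (log2 2.38 ± 0.21, with 1.46 and 1.43 under quantile normalization and median centring and 0.93, adjusted p = 0.03, with the mean of its probesets), and Cebpa, the usual partner of Cebpb, was called lower after E16.5 (log2 −0.63 ± 0.16, adjusted p = 0.0296), a call lost without any 1 of the E16.5 arrays (adjusted p = 0.0841 to 0.108) without the second E18.5 array (adjusted p = 0.0569) or without a variance trend (adjusted p = 0.0962). Of 5 Dlx relatives, 2 rose and 1 fell from E16.5 to E18.5, and Dlx1 and Dlx6 lay at or below background on all arrays. Dlx2 fell into E16.5 (log2 −1.63, adjusted p = 0.0041) and then rose at least 3.60-fold to E18.5 (adjusted p = 0.00281). At E18.5 it was not called against E14.5 (adjusted p = 0.107). Dlx4 was also called higher from E16.5 to E18.5 (log2 1.08, adjusted p = 0.0464), a call lost with quantile normalization and with median centring. Dlx5, whose signal lay between 949 and 1075 before and between 166 and 593 after, was 3.13-fold lower (log2 −1.65 ± 0.34, adjusted p = 0.0143), a call lost without any 1 of the E16.5 arrays (adjusted p between 0.0543 and 0.0574). The CP2 relatives Tfcp2, Tfcp2l1 and Ubp1 had 0 limma calls of 3 after E16.5, and 1 of 3 with an unadjusted p under 0.05. Of 5 Gata relatives, Gata2, a factor of blood progenitors, was called lower after E16.5 (log2 −0.56 ± 0.16, adjusted p = 0.0478), a call lost without any 1 of the E16.5 or E18.5 arrays (adjusted p = 0.067 to 0.191), without a variance trend (adjusted p = 0.1), with a pseudocount of 1 (adjusted p = 0.0534) and with the mean of its probesets (log2 −0.37, adjusted p = 0.122).

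Among 34 measured epidermal transcription factors outside these families, 6 rose and 4 fell from E16.5 to E18.5, leaving 24 uncalled, with a median log2 difference of 0.0016. The shares of all genes called were 6.69% higher and 5.21% lower. Vdr, the vitamin D receptor, went from 132 to 167 up to 358 to 813 (log2 1.78 ± 0.34 SE, adjusted p = 0.0103). Bnc1, a basal keratinocyte zinc finger factor, rose 2.50-fold (adjusted p = 0.0011). Ppard, a lipid-sensing nuclear receptor, fell 2.93-fold (log2 −1.55 ± 0.28, adjusted p = 0.00824), but not with the mean of its probesets (adjusted p = 0.0653). From E14.5 to E16.5, 16 rose and 10 fell, against 37.1% and 20.8% of all genes. Rora, an orphan nuclear receptor, rose 41.3-fold over that interval (log2 5.37, and 3.46 with the mean of its probesets) and Tfap2c, an AP-2 factor of early ectoderm, fell 10.3-fold. With median centring, 13 of this list were called higher and 17 lower.

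Genes held to be targets of grainyhead factors went both ways after E16.5. Of 23 measured, 3 rose and 7 fell, and the other 13 were not called, with a median log2 difference of −0.12 against 0.12 for all genes. The shares of all genes called were 6.69% higher and 5.21% lower. Cldn4, a claudin under Grhl2 and Grhl3 control, fell 3.92-fold, from 1790 to 2283 down to 363 to 686 (log2 −1.97 ± 0.22 SE, adjusted p = 0.000679). Tgm1, the crosslinking transglutaminase induced by Grhl3, fell 2.03-fold (log2 −1.02 ± 0.20, adjusted p = 0.0111), though not when the third E16.5 array was left out (adjusted p = 0.0602). Cdh1, which encodes E-cadherin, rose 1.67-fold (adjusted p = 0.0097), and was not called when that array was omitted (adjusted p = 0.0554) or when no variance trend was fitted (adjusted p = 0.0533). From E14.5 to E16.5, 16 of the 23 rose and 6 fell, with a median of 1.61 (12 and 7 with median centring). Of all genes, 37.1% were called higher and 20.8% lower over that interval. Tgm1 rose 19.1-fold and Cldn4 16.7-fold, and Dsg1b, a desmoglein with near-identical copies, fell 7.65-fold. In the 250 bases before the start, AACNGGTT was found in 1 of 16 promoters of this list, that of Rab25.

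**Figure D3:**
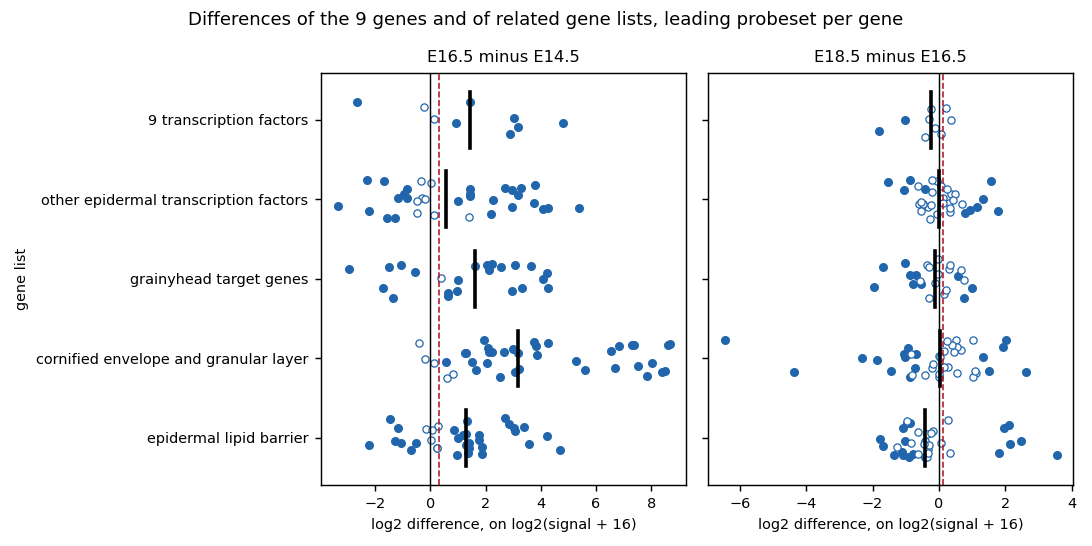
Log2 differences of the leading probesets of the 9 genes and of 4 related lists (1 point per gene, spread vertically for legibility), with filled points called, a black bar at each list's median and the dashed line at the median of all genes. From E14.5 to E16.5 the cornified envelope list lies furthest to the right (list median 3.18), and from E16.5 to E18.5 its genes lie on both sides of 0.

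Structural and lipid genes of the barrier were mostly called higher at E16.5 than at E14.5 and then went both ways. Of 39 cornified envelope and granular layer genes, 34 rose and 0 fell from E14.5 to E16.5 (30 and 2 with median centring), against 37.1% and 20.8% of all genes. From E16.5 to E18.5, 5 rose and 11 fell, against 6.69% and 5.21%. Klk7, a shedding protease, was at least 134-fold higher at E16.5 than at E14.5. After E16.5, Flg, which encodes filaggrin, rose 3.77-fold, a call that did not survive removal of the third E16.5 array or of either of the first pair of E18.5 arrays (adjusted p = 0.051 to 0.0616), nor the fit without a variance trend (adjusted p = 0.0533). Sprr1b, an envelope precursor, went from 7262 to 9797 down to 188 to 789 (log2 −4.38 ± 0.39 SE, adjusted p = 0.000329). Of 35 epidermal lipid genes, 12 fell and 6 rose after E16.5, with a median of −0.43. Sptlc3, a subunit of the first enzyme of sphingolipid synthesis, fell 3.42-fold and Sult2b1, which makes cholesterol sulphate, 2.55-fold, and Scd1, a desaturase, rose 4.36-fold. Over the first interval 22 of the lipid genes rose and 7 fell, and with median centring 12 rose and 11 fell.

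The genes whose centred log2 profiles over the 8 arrays lay nearest to each factor were sought by root mean square difference among 12784 genes that lay above background on all arrays of at least 1 stage. Nearest to Grhl3 were Dhrsx (0.19 log2 units), Ilvbl (0.23) and Sema4a (0.23). Dhrsx lay at or below background on 4 of the 8 arrays, both of E14.5 among them, so its place rests in part on values not above background, whereas Ilvbl and Sema4a were above background on all 8. Sema4a, a semaphorin, read 289 and 303 on the E14.5 arrays, between 2158 and 2297 on those of E16.5 and between 677 and 971 on the last 3. Nearest to Ovol1 were Kdm2a (0.12), Tm2d2 (0.13) and Smad6 (0.13), and nearest to Klf4 were Eefsec, Mfsd2a and Slc16a6 (all 0.13). Gata3 lay nearest to Shmt1 (0.076), Ints5 (0.092) and Dtx2 (0.11). Nearest to Cebpb were Mlf2 (0.084), Npl (0.18) and Tgfb1 (0.20). Mlf2 gave 194 and 177 at E14.5 and 4344 to 6163 later. The nearest to Grhl2 were Pold1 (0.096), Pfn2 (0.097) and Pank2 (0.11), for which every later array lay below both E14.5 arrays. Among the 9 factors themselves, the closest pairs were Grhl1 with Dlx3 (0.39), Klf4 with Gata3 (0.40) and Ovol1 with Arid3a (0.44), and Grhl3 lay nearest to Ovol1 (0.57). These distances describe 8 arrays in 3 stages and carry no test. The nearest genes were chosen by their profiles over all 8 arrays, so patterns they share with a factor follow from that choice.

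**Figure D4:**
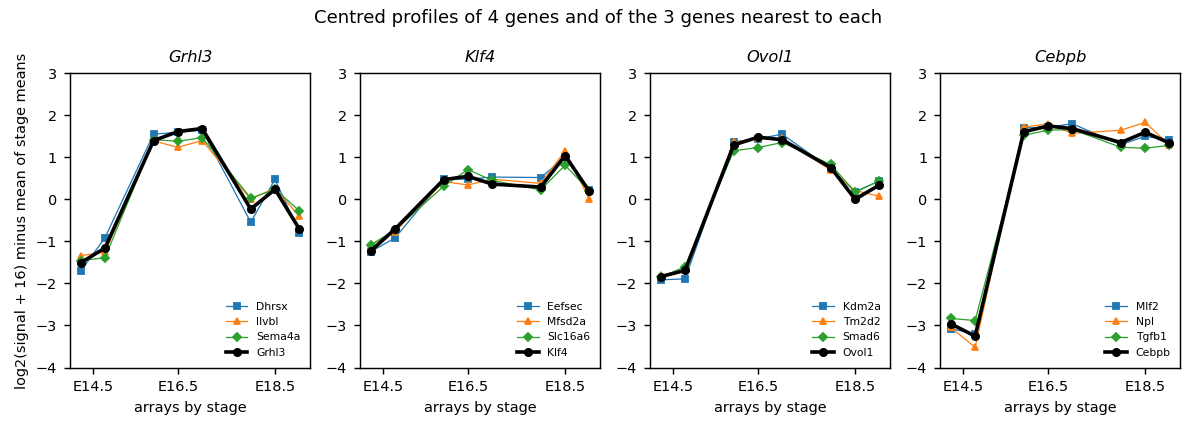
Centred log2 profiles of Grhl3, Klf4, Ovol1 and Cebpb (black) and of the 3 genes nearest to each (colours), array by array within each stage. Lines only join points for reading, since replicates have no order. Grhl3 and Ovol1 drop between the E16.5 and E18.5 arrays, and the leading probesets of Klf4 and Cebpb were not called over that step.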

How the data were processed

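RNA of 8 dorsal skin samples was hybridised to Affymetrix arrays, and each deposited number is the linear signal intensity of a probeset on 1 array. Expression Console 1.1 (Affymetrix) and PLIER 2.0 are named, per the submitters' processing notes, without their role or order. How background was corrected and arrays normalized is not stated there. Per the labels' protocols, targets were made from random hexamers, a protocol for whole-transcript arrays, whereas the platform is a 3′ array.

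Stage came from the age label. Probe annotation gave 34958 probesets 1 symbol, 932 several and 9211 none. Of the 64 control probesets those with a symbol were left out, leaving 34945 probesets of 18193 genes. Gene IDs of 34741 were found in RefSeq (GRCm38.p6).

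Signals were analysed as log2(signal + 16). One mean per stage was fitted to all 8 arrays with limma 3.58.1 (R 4.3.3, lmFit and eBayes with a variance trend), and checked on simulated data. If any array of the lower stage was not above background, its signals were raised to background where below it, and the fold reads "at least". From each list, genes named were taken from at most the 3 largest called rises and 3 largest falls with arrays not overlapping. The 9 genes and all lists were chosen with earlier results of these data known. Lists are described by counts and medians without a set test. Alternatives were other pseudocounts, scalings, filters, variance settings, array weights, gene summaries, fewer stages and each array left out. The number of arrays limits the precision.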

Additional observations from a re-analysis of the deposited data

How the results depend on the processing

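Of 63 single-gene differences refitted 1124 times in all, 1057 refits kept direction and call. The calls among the 16 probesets from E16.5 to E18.5 went from 2 to 4 with median centring, and ranged from 2 to 3 with 1 array left out. With one probeset per gene, or the mean of a gene's probesets, fewer features were counted, and the calls went from 12 to 7 in both for E16.5 against E14.5, and from 14 to 7 and 8 for E18.5 against E14.5. Calls among all probesets from E16.5 to E18.5 went from 3742 to 1662, 1563 and 1208 without E16.5 replicates 1, 2 and 3, to 2435 with no variance trend, and to 2340 and 1751 genes with one probeset or the mean per gene.

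Reversed signs all concerned small differences, disagreeing probesets or median centring; where no construction shows it, the cause was not tested. With the mean of a gene's probesets, Grhl2 gave 0.46 and 1.10 against E14.5 (E16.5 and E18.5), and Dlx3 gave 1.62 and 1.67 against E14.5, 0.056 from E16.5 to E18.5 and −1.56 for the second change minus the first. With median centring Grhl1 gave −0.82 and Gata3 −0.011 from E14.5 to E16.5, and 0.27 and 0.092 for the second change minus the first. Klf4 from E16.5 to E18.5 gave −0.10 with quantile normalization, −0.069 with median centring and −0.18 with the mean of probesets, and −0.22 to 0.21 with 1 array left out. Grhl1 gave 0.061 from E14.5 to E18.5 with quantile normalization and −0.071 to 0.34 from E14.5 to E16.5 with 1 array left out. With 1 array left out, Gata3 ranged from −0.015 to 0.35 and Dlx3 from −0.39 to 0.044 between E16.5 and E18.5, and Dlx3 from −0.24 to 0.32 for the second change minus the first. Dlx3 was called lower at E18.5 than at E14.5 without E18.5 replicate 1 (−0.62, adjusted p = 0.027) and with median centring (−1.42). With median centring Klf4 (0.41, adjusted p = 0.182) and Gata3 (0.071, adjusted p = 0.806) were not called from E14.5 to E18.5.

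No paired analysis was possible because the replicate numbers only follow the order of the samples and link no arrays across stages. Without one E14.5 array, the lone array is assumed to vary like the other stages. Each stage had only 2 or 3 arrays, which limits the precision.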
